A study of Mus musculus with 2 samples.

Results

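The dual-specificity MAPK phosphatases were examined in RNA of 4T1 cells, a mouse mammary carcinoma line that spreads to the lung. The 10 genes of the family were taken by name (Dusp1, Dusp2, Dusp4, Dusp5, Dusp6, Dusp7, Dusp8, Dusp9, Dusp10 and Dusp16), by a rule that uses no measured value. They were nevertheless chosen with earlier results of these data known. All 10 were found among the 21911 genes of the deposited table. The 2 libraries were 1 of cells kept with PBS and 1 of cells kept with potassium oxalate, both for 48 h. The oxalate dose is given as 20 µM in the sample characteristics and in the methods of the study, and as 20 mM in the treatment protocol and the design text of the series. The study sequenced these cells to look for the changes behind the growth of breast cancer cells with oxalate, and followed MAPK signaling from there. It links the genes higher with oxalate to the MAPK pathway. By Western blot it reports more phosphorylated ERK, p38 and MEK, and more c-Fos protein, in 4T1 cells given oxalate. A p38 inhibitor is reported to have abolished these increases. The values below are mRNA levels only, and whether they follow the phosphorylation of these kinases was not tested. With 1 library per condition, no difference below has a replicate check and no test of the conditions could be made.

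MAP kinases (ERK, JNK and p38) are switched on when a threonine and a tyrosine of their activation loop are both phosphorylated. The phosphatases of this family remove both phosphates and so switch the kinases off. Many of their genes are themselves transcribed in response to MAPK activity, so that they form a negative feedback loop, and their mRNA is widely used as a readout of that activity. Dusp1, Dusp2, Dusp4 and Dusp5 encode nuclear enzymes that growth factors and stress induce. Dusp6, Dusp7 and Dusp9 encode cytoplasmic enzymes that act mainly on ERK. Dusp8, Dusp10 and Dusp16 encode enzymes that act mainly on JNK and p38 and are found in the cytoplasm or in both compartments.

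What the 10 genes share is the catalytic loop, in which a histidine and a cysteine are followed by a fixed alanine and glycine and by an arginine. The coding sequence of this loop was found once in each gene by its codons, in the GENCODE M21 transcript of each (GRCm38, 5′ to 3′ on the coding strand). It is shown because all 10 genes carry it, and it was not searched in other genes, so it is not shown to be particular to the family. The codons of the histidine, cysteine, alanine, glycine and arginine are in capitals.
Dusp1: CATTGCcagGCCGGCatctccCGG
Dusp2: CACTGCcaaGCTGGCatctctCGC
Dusp4: CACTGCcagGCCGGCatctccCGA
Dusp5: CACTGCgaaGCTGGGgtttccCGG
Dusp6: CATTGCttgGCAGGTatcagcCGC
Dusp7: CACTGCctaGCAGGCatcagcCGT
Dusp9: CACTGTctgGCAGGGgtcagcCGC
Dusp8: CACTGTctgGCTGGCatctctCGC
Dusp10: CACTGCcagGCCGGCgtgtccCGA
Dusp16: CACTGCttaGCTGGGatctctCGC
Of the 24 bases, 11 were the same in all 10 genes, and pairs of genes had between 13 and 22 bases in common. The search itself required the codons in capitals, so that most of the bases shared by all 10 genes were fixed by it. These counts are therefore no measure of how alike the genes are. The loop lay in exon 4 of 4 in Dusp1 (chromosome 17, 26506592 to 26506615), Dusp2, Dusp4, Dusp5, Dusp9 and Dusp10 (chromosome 1, 184074293 to 184074316). It lay in exon 3 of 3 in Dusp6 (chromosome 10, 99266027 to 99266050) and in Dusp7, and in exon 6 of 7 in Dusp8 and Dusp16.

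The family was expressed in both libraries, and the level of its members spread over about 2 orders of magnitude. Levels are in FPKM (fragments per transcript length and sequencing depth), which is per length, so that genes can be compared. Dusp7 was the highest, at 128.87 FPKM in PBS cells and 123.63 FPKM in oxalate cells. Dusp2 was the lowest, at 1.2 FPKM and 1.19 FPKM in the same order, so that Dusp7 was 107-fold higher than Dusp2 with PBS and 104-fold higher with oxalate. From high to low the order was Dusp7, Dusp9, Dusp5, Dusp4, Dusp6, Dusp10, Dusp1, Dusp8, Dusp16 and Dusp2, and all 10 members kept their place in this order in both libraries. For each value a 95% exact Poisson interval was taken from the estimated reads, which covers counting error only. Of the 9 pairs of neighbours in the order, 8 had intervals apart in both libraries. The exception was Dusp1 and Dusp8, whose intervals overlapped in the oxalate library (13.95 to 15.8 FPKM for Dusp1 and 12.6 to 14.06 FPKM for Dusp8).

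**Figure D1:**
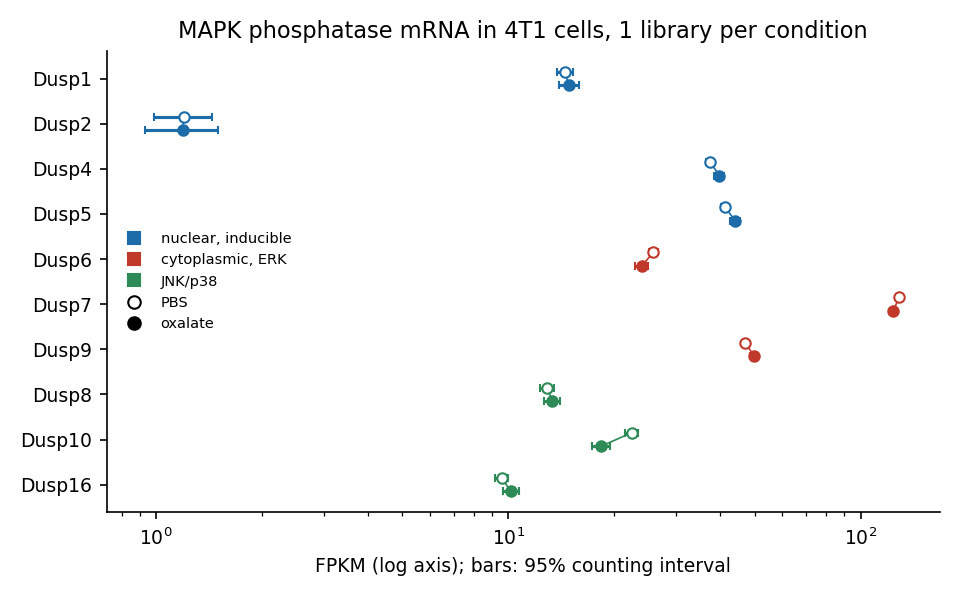
FPKM of each phosphatase on a log axis, with open circles for the PBS library and filled circles for the oxalate library, colored by class; bars are 95% counting intervals and there is 1 library per condition. The paired circles lie close together for every gene, with the widest gap on this axis for Dusp10, from 22.38 to 18.32 FPKM.

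The labelled cell type was checked first, together with the libraries. All 6 epithelial markers were high in both (Epcam, Cdh1, Krt7, Krt8, Krt18 and Krt19, together 2057 FPKM with PBS and 2118 with oxalate). The 5 leukocyte markers were listed at 0 in both, and the 3 endothelial markers summed to 0.080 and 0.090 FPKM. Of the 5 fibroblast markers, Col1a1 was at 143.48 (PBS) and 144.61 FPKM (oxalate), and the others were at most 1.93. The deposited values moved in steps that gave a depth of about 56800000 reads for PBS cells and 36500000 for oxalate cells. Fold changes are given as log2((oxalate + 1)/(PBS + 1)), a scale on which low genes appear less changed than they are. Each was read against the 10267 genes whose mean over both libraries reached 1 FPKM, to which all 10 members belonged. The median of these genes was 0.0031, and their middle quartiles ran from -0.087 to 0.088.

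No member of the family changed 2-fold with oxalate, and none changed 1.5-fold. Of all 10267 genes, 0.653% changed at least 2-fold and 1.99% at least 1.5-fold in either direction. At 1.2-fold, 1 of the 10 members was lower (Dusp10) and none was higher, whereas 9.94% of all genes passed this threshold in either direction, 4.75% of them higher and 5.19% lower. The share of the members at 1.2-fold was therefore that of the background. There were 6 members higher and 4 lower with oxalate, against 5198 and 5033 of all genes. The median log2 fold change of the members was 0.042, and 7 of the 10 lay within the middle quartiles of all genes. The sum over the family was 340.89 FPKM with PBS and 339.07 FPKM with oxalate.

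**Figure D2:**
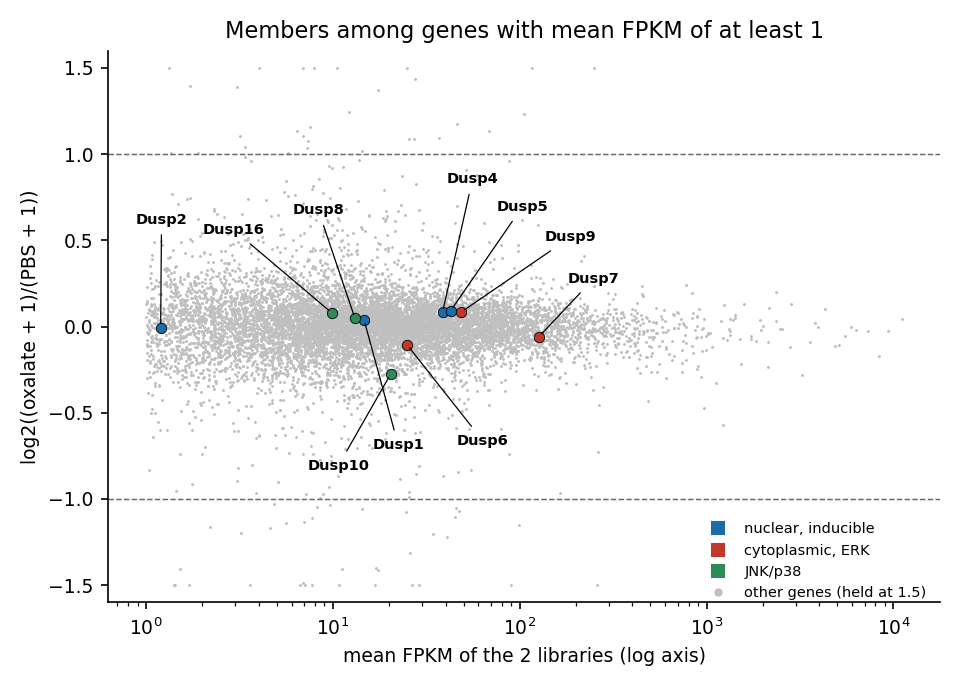
Log2((oxalate + 1)/(PBS + 1)) against mean FPKM (log axis) for genes whose mean reached 1 FPKM, with the phosphatases in color by class and the other genes in grey, held at 1.5 either way where they exceed it; dashed lines mark 2-fold. All 10 phosphatases lie inside the band, between -0.28 (Dusp10) and 0.092 (Dusp5).

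The 4 members of the nuclear, inducible class differed by less than 1.2-fold between the libraries. Dusp1 (ENSMUSG00000024190, chromosome 17, 26505590 to 26562128) encodes an immediate-early phosphatase that prefers p38 and JNK. It had 14.46 FPKM in PBS cells and 14.87 FPKM in oxalate cells (log2 fold change 0.038). Part of its annotated exons overlaps Ergic1 on the other strand, and the library protocol does not mark strand, so that its level is uncertain; Ergic1 had 186.69 FPKM (PBS) and 196.34 FPKM (oxalate). Dusp4 (ENSMUSG00000031530, chromosome 8, 34807297 to 34819894), whose product acts on ERK and JNK, had 37.42 FPKM in PBS cells and 39.69 FPKM in oxalate cells (0.083). Dusp5 (ENSMUSG00000034765, chromosome 19, 53529109 to 53542431) encodes a nuclear phosphatase specific for ERK. It had the largest positive value of the family, with 41.25 FPKM in PBS cells and 44.04 FPKM in oxalate cells (0.092). Values at least this far from 0 were found in 47.6% of all genes. Exons of Dusp5 and Dusp8 overlap antisense or divergent noncoding genes (AC137853.2 and Gm32786), not analysed here, whose reads cannot be told apart from theirs without strand. Dusp2 (ENSMUSG00000027368, chromosome 2, 127336159 to 127338376), known from activated immune cells, was near the lower limit of the genes compared. Its 1.2 and 1.19 FPKM rest on an estimated 110 and 70 reads, so that it was the least precisely measured member.

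The cytoplasmic class held the most abundant member. Dusp6 (ENSMUSG00000019960, chromosome 10, 99263231 to 99267489) encodes the best known feedback phosphatase of ERK. It had 25.83 FPKM in PBS cells and 23.94 FPKM in oxalate cells (-0.11). Values this far from 0 were found in 41.5% of all genes. Dusp7 (ENSMUSG00000053716, chromosome 9, 106368632 to 106375724), a close relative of Dusp6, made up 37.8% of the FPKM of the family with PBS and 36.5% with oxalate, and its log2 fold change was -0.059. Dusp9 (ENSMUSG00000031383, chromosome X, 73639419 to 73643514), whose product is known for its role in the placenta, had 47.02 FPKM in PBS cells and 49.88 FPKM in oxalate cells (0.083). Dusp6 and Dusp7 were thus lower and Dusp9 higher in the oxalate library.

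Among the phosphatases of JNK and p38, Dusp10 had the lowest log2 fold change of the family. Dusp10 (ENSMUSG00000039384, chromosome 1, 184013302 to 184075636), whose product inactivates p38 and JNK, had 22.38 FPKM in PBS cells and 18.32 FPKM in oxalate cells. The oxalate value was 18.1% below that of PBS (log2 fold change -0.28), and 938 of the 10267 genes (9.14%) lay at least as far from 0. In bulk RNA, less Dusp10 mRNA per cell and fewer cells with it cannot be told apart. Dusp10 has 2 annotated coding transcripts, and the deposited table gives 1 value for both. Dusp16 (ENSMUSG00000030203, chromosome 6, 134715468 to 134792625), whose product shuttles between nucleus and cytoplasm and prefers JNK, had 9.58 FPKM in PBS cells and 10.17 FPKM in oxalate cells (0.078). Dusp8 (ENSMUSG00000037887, chromosome 7, 142079490 to 142095843), which is best known from brain and heart, had 12.88 FPKM in PBS cells and 13.34 FPKM in oxalate cells (0.047). The other 2 genes of this class therefore had small positive values where Dusp10 had a negative one.

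The counting error of each difference was taken from the estimated reads, as a 95% interval (exact, Clopper-Pearson) around the log2 ratio of FPKM values without a pseudocount. The interval compares the 2 libraries and not the conditions, and covers counting error only. For Dusp10 the ratio was -0.29, with an interval from -0.39 to -0.19 (2235 and 1175 reads). For Dusp6 it ran from -0.19 to -0.034 and for Dusp7 from -0.099 to -0.021, both below 0. For Dusp4 it ran from 0.026 to 0.14, for Dusp5 from 0.036 to 0.15 and for Dusp9 from 0.033 to 0.14, all above 0. For Dusp1, Dusp8, Dusp16 and Dusp2 the interval included 0, so that this depth did not resolve a difference. That 6 of the 10 intervals left out 0 is close to the 48.8% of the 10261 genes with a known length for which this was so (25% above 0 and 23.9% below). For 8 members the whole interval lay within 1.2-fold either way, the exceptions being Dusp10 and Dusp2, and for all 10 it lay within 1.5-fold. Over all 10261 genes these shares were 63.8% and 92%. The interval of Dusp2 was the widest, from -0.47 to 0.43.

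**Figure D3:**
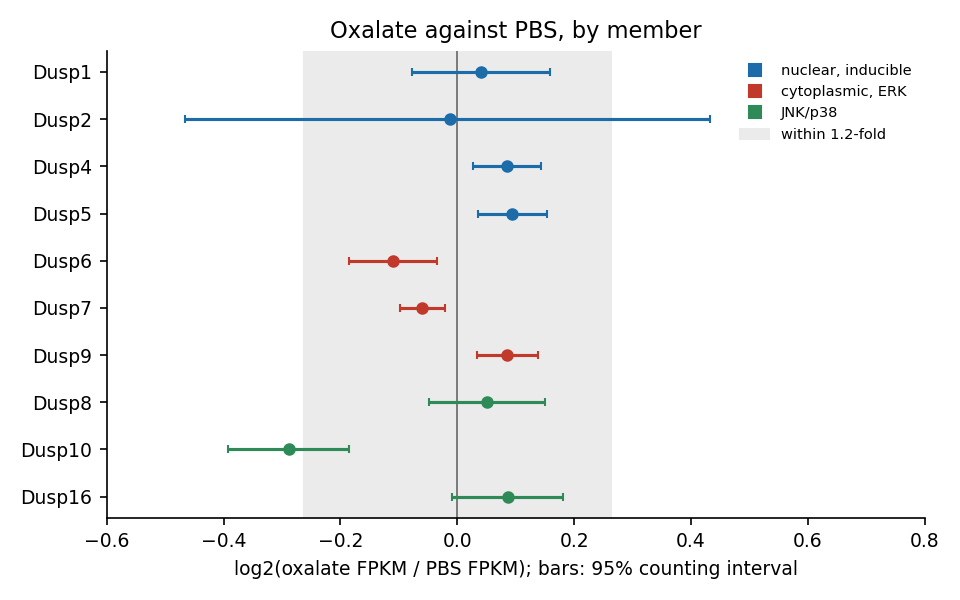
Log2 ratio of oxalate FPKM to PBS FPKM for each phosphatase, colored by class, with 95% counting intervals as bars and the range within 1.2-fold shaded. Dusp10 is the only point outside the shaded range, at -0.29, and the bar of Dusp2 is the widest, from -0.47 to 0.43.

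The nuclear class was then set against the cytoplasmic classes. The median log2 fold change was 0.060 over the 4 nuclear members, -0.059 over the 3 cytoplasmic members that act on ERK and 0.047 over the 3 members that act on JNK and p38. The values of the classes overlapped, since Dusp9 of the cytoplasmic class (0.083) lay between Dusp4 and Dusp5 of the nuclear class, and the difference between classes could not be tested. In summed level the nuclear class had 94.33 FPKM with PBS and 99.79 FPKM with oxalate, or 27.7% and 29.4% of the family. The cytoplasmic class of ERK had 201.72 and 197.45 FPKM, or 59.2% and 58.2%, most of it from Dusp7. The JNK and p38 class had 44.84 and 41.83 FPKM, or 13.2% and 12.3%. The nuclear sum was 0.468 of the cytoplasmic ERK sum with PBS and 0.505 with oxalate. Without Dusp7 the nuclear class was the higher one, at 1.29 and 1.35 times the cytoplasmic ERK sum.

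Start regions were looked up because transcription of these genes is driven by factors downstream of MAPK and cAMP signaling, which bind known short motifs. RefSeq start regions (GRCm38.p6, from 250 bases before the start to 50 after) were found for 8 of the 10 members, all but Dusp4 and Dusp9. Those of 3 members with motifs of inducible factors and of Dusp10, the member with the largest difference, are given 5′ to 3′ on the coding strand. Capitals mark the cAMP response element (CRE, TGACGTCA), the CArG box of serum response factor and the E-box CACGTG. The regions are chr17:26508423-26508722 (minus strand) for Dusp1, chr19:53528895-53529194 (plus) for Dusp5, chr7:142095235-142095534 (minus) for Dusp8 and chr1:184034131-184034430 (plus) for Dusp10.
Dusp1: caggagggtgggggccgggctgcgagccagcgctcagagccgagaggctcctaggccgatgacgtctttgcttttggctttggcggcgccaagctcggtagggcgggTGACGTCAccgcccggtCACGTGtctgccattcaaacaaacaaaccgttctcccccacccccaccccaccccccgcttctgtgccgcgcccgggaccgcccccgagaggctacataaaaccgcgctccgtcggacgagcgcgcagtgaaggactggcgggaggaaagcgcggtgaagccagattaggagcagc
Dusp5: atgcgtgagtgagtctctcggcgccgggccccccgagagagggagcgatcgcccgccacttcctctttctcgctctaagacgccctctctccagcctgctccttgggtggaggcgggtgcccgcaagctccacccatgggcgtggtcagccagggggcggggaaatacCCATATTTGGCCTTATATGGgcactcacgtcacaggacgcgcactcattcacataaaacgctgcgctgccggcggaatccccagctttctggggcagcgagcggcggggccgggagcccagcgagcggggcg
Dusp8: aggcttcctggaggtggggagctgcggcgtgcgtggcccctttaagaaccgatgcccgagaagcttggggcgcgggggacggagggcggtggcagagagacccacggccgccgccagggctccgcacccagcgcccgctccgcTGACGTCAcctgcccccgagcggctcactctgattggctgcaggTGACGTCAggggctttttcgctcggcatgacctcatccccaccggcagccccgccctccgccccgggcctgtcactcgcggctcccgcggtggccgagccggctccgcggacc
Dusp10: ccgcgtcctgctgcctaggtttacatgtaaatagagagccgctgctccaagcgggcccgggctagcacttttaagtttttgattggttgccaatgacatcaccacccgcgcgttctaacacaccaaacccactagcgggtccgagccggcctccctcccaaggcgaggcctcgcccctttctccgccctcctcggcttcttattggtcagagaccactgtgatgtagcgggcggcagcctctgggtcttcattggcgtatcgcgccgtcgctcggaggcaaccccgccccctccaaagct
The full CRE was present in Dusp1 (1 match) and Dusp8 (2 matches), against 1.79% of all 32851 start regions of this length. Its first 5 letters, TGACG, which the full CRE contains on both strands, occurred in 5 of the 8 members and in 20.8% of all start regions. A pair of adjoining CArG boxes lay at positions -82 to -63 of Dusp5, counted from 0 at the start base, and this box occurred in 1.63% of all start regions. The E-box was found in Dusp1 and Dusp2 (7.15% of all), and the GC box GGGCGG in 7 of the 8 members, all but Dusp6 (35.7% of all). The AP-1 motif TGACTCA, the ETS motif CCGGAA and the TATA motif TATAAA had no match in these 8 windows. In the same order they occurred in 5.20%, 14.9% and 13.6% of all start regions, so that their absence from 8 windows does not set the family apart. All motifs were searched on both strands. The window of Dusp10 held GC boxes and no other motif searched. For Dusp1, Dusp8 and Dusp10 the annotated gene extends beyond the 5′ side of the window, and its outer 5′ end was not searched. A match is a description of the letters and not of binding.

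**Figure D4:**
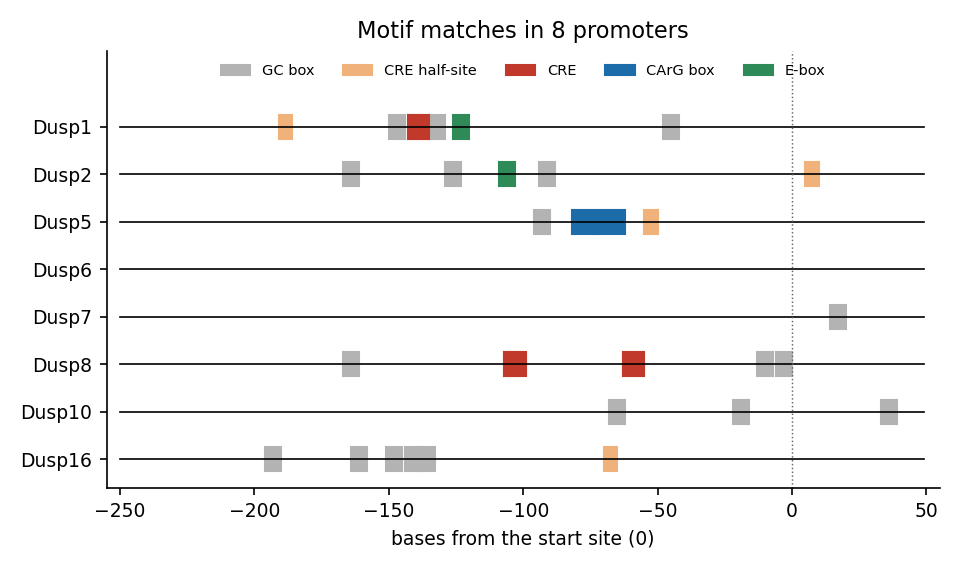
Position of motif matches in the start regions of 8 phosphatase genes, in bases from the start site (0), colored by motif. CREs lie in Dusp1 and Dusp8, and the adjoining CArG boxes lie in Dusp5, at -82 to -63.

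The mRNAs of the family were also compared by features that go with rapid turnover, few exons and AU-rich elements (AUUUA) in the 3′ untranslated region. The median member had 4 exons, against 9 over the 9675 coding genes past the same filter with an untranslated region of 100 bases or more. AUUUA occurred in 9 of the 10 members, all but Dusp7, and in 70.5% of all these genes. Its density was highest in Dusp2 (6.88 per kb) and Dusp1 (5.80 per kb), both of the nuclear class. Dusp4 and Dusp5 of the same class had 1.80 and 0.902 per kb. The median density was 1.52 per kb over the members and 1.39 over all genes. Dusp10 had 2.70 per kb and Dusp6 0.841 per kb.

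Other genes of the pathway were taken from lists of phosphatases, kinases and targets of ERK. None of them that passed the filter of 1 FPKM changed 1.5-fold with the pseudocount of 1, whereas without a pseudocount Fosb did (log2 ratio -0.65, counting interval -0.85 to -0.44). The atypical dual-specificity phosphatases lack the kinase-binding domain of the family. Of 16, 10 were compared, 4 of them higher and 6 lower, with a median of -0.015. Dusp19 went from 2.74 to 2 FPKM (-0.32) and Styx, which encodes a catalytically inactive relative that binds ERK, from 10.56 to 8.32 FPKM (-0.31), both past 1.2-fold, while Dusp13 went from 3.14 to 3.66 FPKM (0.17). The list of tyrosine and serine/threonine phosphatases of MAP kinases had 6 of 9 genes compared, all 6 higher, with a median of 0.063. All 6 belong to serine/threonine phosphatases, since the tyrosine phosphatase genes Ptpn5, Ptpn7 and Ptprr had a mean below 1 FPKM. Of all genes, 50.6% were higher. None of the 6 passed 1.2-fold, and 4 lay within the middle quartiles of all genes. The largest value among them was that of Ppp2ca, a catalytic subunit of PP2A, from 35.34 to 39.08 FPKM (0.14), followed by Ppp2cb (0.12) and Ppm1a (0.076).

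The kinases that these enzymes act on or that lie above them gave medians near 0. Of 10 MAP kinases, 9 were compared, with a median of -0.00066. Mapk7, which encodes ERK5, went from 9.44 to 13.4 FPKM (0.46), the single MAP kinase past 1.2-fold. Mapk3 and Mapk9 had values of 0.18 and -0.062. Of the 7 MAP2 kinases, 6 were compared, 3 higher and 3 lower, and the values furthest from 0 were those of Map2k2 (-0.10), Map2k7 (0.086) and Map2k3 (-0.079).

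The other feedback inhibitors and targets of ERK came from further lists. Of the 8 genes of Sprouty and Spred proteins and Errfi1, which inhibit signaling from receptors to ERK, 7 were compared. Spry3 could not be matched by symbol. All 7 lay between -0.041 (Spry1) and 0.066 (Spred1), with Spred3 at 0.041. Of 24 immediate-early genes, 17 were compared, 6 higher and 11 lower, with a median of -0.067. Cyr61 could not be matched by symbol. The others left out had a mean below 1 FPKM. Of these, Fos (0.82 FPKM with PBS and 0.95 with oxalate) and Nr4a3 (0.01 and 0.02) had higher values with oxalate. The counting interval of Fos ran from -0.24 to 0.67. Lower values with oxalate were found for Egr1 (0.75 and 0.57 FPKM), Egr2 (0.63 and 0.53), Egr3 (0.64 and 0.37) and Btg2 (0.76 and 0.47). The intervals ran from -1.37 to -0.22 for Egr3 and from -1.21 to -0.19 for Btg2. Among the 17 compared, Fosb was the only one past 1.2-fold on the scale with a pseudocount of 1, from 3.77 to 2.41 FPKM (-0.48). Zfp36, which encodes a protein that binds AUUUA elements and speeds decay, was at -0.20 and Klf4 at 0.19. Of 11 delayed targets, 10 were compared, 4 higher and 6 lower, with a median of -0.036. Etv5, an ETS factor whose mRNA follows ERK activity as that of Dusp6 does, went from 15.84 to 11.7 FPKM (-0.41), with Epha4 at 0.21 and Areg at -0.096.

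**Figure D5:**
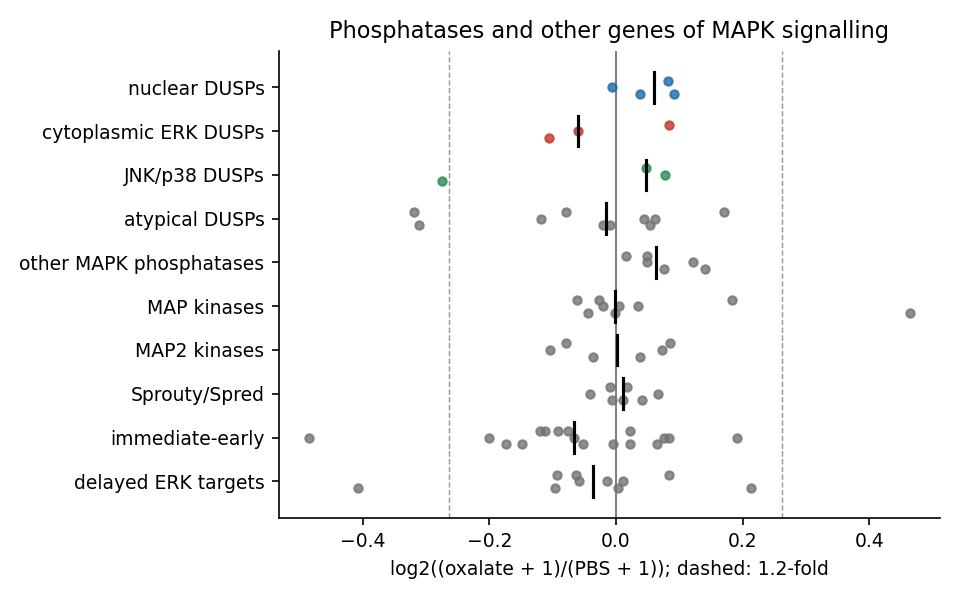
Log2((oxalate + 1)/(PBS + 1)) of each gene whose mean reached 1 FPKM, by class of phosphatase (colored) and by list of other MAPK genes (grey), with black bars for the medians and dashed lines at 1.2-fold. The 3 classes of phosphatases have medians of 0.060, -0.059 and 0.047, and Dusp10 is their only point past a dashed line.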

How the data were processed

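RNA of 4T1 cells was extracted with Trizol, enriched with oligo(dT) beads, reverse transcribed from random primers and run on a HiSeq2500. The authors deposited FPKM values rounded to 2 decimals, 1 per gene and library. Bowtie2 2.2.8 and TopHat2 2.1.1 are named in the processing notes of the submitters, and the quantification tool, genome build and annotation are not given in the sources used here. Symbols came from GENCODE M21 (GRCm38) for 21848 of 21911 identifiers. Depth was estimated from the steps of low FPKM values in genes shorter than 0.7 kb with 1 transcript (88 genes for PBS and 73 for oxalate). All of these values lay within 0.2 of a whole read, but the step was chosen to fit them, so that this is no separate check. Equally short and low genes with several coding transcripts were taken at their mean length. Of their values, 98.0% of 51 (PBS) and 94.3% of 35 (oxalate) lay as close. The members are longer, and their lengths were not checked in this way. Reads of members are therefore estimates.

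The fold change used a pseudocount of 1 and genes whose mean reached 1 FPKM. No test was made. Named genes were the 10 members and, from each pathway list, the 3 genes furthest from 0 and any past 1.5-fold. The members and lists were chosen with earlier results of these data known. Alternatives were pseudocounts of 0.1 and 0.001, a rescaled oxalate library, other filters and thresholds, and the longest coding transcript as length. The scripts were tested on simulated data. Analyses ran in Python 3.11.15 with scipy 1.17.1, pandas 2.3.3 and numpy 2.4.6, and figures in matplotlib 3.10.9.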

Additional observations from a re-analysis of the deposited data

How the results depend on the processing

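No paired analysis was possible because PBS and oxalate have 1 library each, and no replicate could be left out. The count of members changed 2-fold was 0 under pseudocounts of 0.1 and 0.001, after rescaling, without a filter, with a mean of 5 FPKM or more and at 1.5-fold, and was 1 at a threshold of 1.2-fold (Dusp10). Over the same pseudocounts, scaling and filters, the median of the members stayed between 0.039 and 0.047, that of the nuclear class between 0.057 and 0.083, that of the cytoplasmic ERK class between -0.063 and -0.059, and that of the JNK and p38 class between 0.044 and 0.051. None of 30 values of single members moved by more than its counting interval. With the longest coding transcript as length, 9 of 10 intervals stayed on the same side of 0 or included it as before, and that of Dusp16 came to lie above 0, from 0.0011 to 0.17. Dusp2, Dusp4, Dusp5 and Dusp9 have 1 coding transcript each, so that their intervals could not change with this setting. Depth limits Dusp2 most, at an estimated 110 and 70 reads.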
